A study of Mus musculus with 4 samples.

Results

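The mitochondrial carrier family was examined in RNA from tumour-associated macrophages of mouse liver tumours. Its members were taken as the rows of the deposited expression table whose symbol is Slc25a followed by a number, together with Ucp1, Ucp2 and Ucp3, with a value above 0 in at least 1 library. That rule found 50 genes of the 24784 in the table, 47 of them with an Slc25a symbol. Expression was not used to choose them beyond that limit. The 4 libraries were made from polyadenylated RNA of sorted cells, 2 from male mice labelled Control and 2 from male mice labelled OXCT1mKO, all aged 6 to 8 weeks. Both groups carried liver tumours and had received Hepa 1-6, a hepatoma line of the mouse, by a route labelled i.pv. The genotype label names Oxct1, the mitochondrial enzyme that activates acetoacetate in ketone body breakdown, as the targeted gene. How the allele was made, what drives its deletion, and whether a library came from 1 mouse or a pool is not given in the sources used here. Accordingly, the p-values rest on the spread of these samples alone, and that spread may be technical.

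Carriers of this family sit in the inner membrane of mitochondria, a few in the outer membrane or in peroxisomes, and exchange metabolites between the cytosol and the matrix. Most are built from a triple repeat of paired transmembrane helices and are named for their substrates: ADP and ATP, phosphate, di- and tricarboxylates, amino acids, acylcarnitines, nucleotides, cofactors or iron. The uncoupling proteins belong to the same family. In macrophages, citrate export through Slc25a1 is known to feed the synthesis of lipids and inflammatory mediators, and Ucp2 is known as the uncoupling protein of leukocytes. Levels are RPKM (reads of a gene divided by its length and by the size of the library), which allows levels of different genes to be compared. Log2 differences are on the log2(RPKM + 1) scale, OXCT1mKO minus control, with standard errors (SE) from limma, a linear model that shares the spread over genes. A gene was called changed at a limma adjusted p below 0.05 over the 12523 genes with a mean of at least 1 RPKM.

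Oxct1 itself was 19.3 and 20.3 RPKM in the control pair and 14.7 and 15.4 RPKM in OXCT1mKO, a log2 difference of -0.37 ± 0.09 (SE, limma adjusted p 0.0346), so its transcript remained in the libraries labelled OXCT1mKO. That call was lost in 6 of 11 alternative fits, with adjusted p up to 0.225. Of all tested genes, 16.4% rose and 16.4% fell, the shares to set beside each count of markers here. All 10 macrophage markers were measured, and 6 of them rose. Their summed level was 1538 and 882 RPKM in the control pair and 1741 and 1926 RPKM in OXCT1mKO. The 8 Kupffer cell markers summed to 54.4 and 49.7 RPKM against 430.04 and 269 RPKM, and 7 of them rose. Markers of other cells were present as well. No listed marker was at 0 in all libraries. Hepatocyte markers summed to 578 and 481 RPKM in the control pair against 727 and 492 RPKM in OXCT1mKO, and 3 of 10 rose. Alb, the highest of them, was lower in OXCT1mKO (418 and 372 RPKM against 360 and 277 RPKM) and was not called. In 6 of the 10, both OXCT1mKO values were above both controls, as in 37.6% of all tested genes. Cps1, among the 3, averaged 0.504 RPKM in the controls, and the Kupffer cell marker Cd163 0.364 RPKM. These 2 passed the filter on mean level only through OXCT1mKO. Endothelial markers summed to 820 and 951 RPKM against 1499 and 1344 RPKM, with 6 of 8 higher, and T cell markers to 202 and 138 RPKM against 46.6 and 74.5 RPKM, with 5 of 7 lower. Erythroid markers, led by globins, summed to 24387 RPKM in control 1 and to 848, 332 and 312 RPKM in control 2, OXCT1mKO 1 and OXCT1mKO 2, and the erythroid genes Slc4a1 and Klf1 had means below 1 RPKM. Pancreatic acinar markers, 46.6 and 35.1 RPKM in sum against 2.997 and 2.101 RPKM, fell in 7 of 7 tested genes, and hepatoma and fetal liver markers, 167 and 138 RPKM against 53.5 and 62.5 RPKM, in 3 of 4. Each of the 7 acinar genes averaged below 1 RPKM in OXCT1mKO, so they passed the filter on mean level only through the controls. The controls were the extremes for neutrophil markers, at 162 RPKM in control 1 and 1301 RPKM in control 2, against 582 and 399 RPKM. The same held for B and plasma cell markers, at 21.7 and 162 RPKM against 74.9 and 92.0 RPKM. Epithelial markers summed to 799 and 1242 RPKM in the control pair against 723 and 682 RPKM in OXCT1mKO, with 1 of 6 higher and 0 lower. Stellate and smooth muscle cell markers summed to 44.3 and 31.0 RPKM against 27.1 and 29.7 RPKM, and 2 of the 4 tested fell. The part of these cell differences in the carrier results was not tested. In such bulk samples, fewer cells of a type and less RNA per cell cannot be told apart.

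A small number of carriers made up most of the family's transcript level. The family summed to 1184 and 1050 RPKM in the control pair and to 1133 and 1112 RPKM in OXCT1mKO, so the groups overlapped. Without Ucp2 the sum did not overlap and was lower in OXCT1mKO (905 and 853 RPKM against 793 and 781 RPKM). As a share of all RPKM in a library, the family was higher in OXCT1mKO (0.313% and 0.295% against 0.345% and 0.342%). Ucp2, Slc25a3 and Slc25a5 together held 63.5% to 66.8% of the family sum in each library, and the 10 highest members held 83.8% to 85.8%. Ucp2 ranked 164th, Slc25a3 182nd and Slc25a5 272nd by mean level among the 19514 genes above 0. Slc25a39 (mean over the 4 libraries 56.5 RPKM), Slc25a4 (45.9 RPKM), Slc25a28 (27.7 RPKM), Slc25a11 (26.5 RPKM), Slc25a1 (25.1 RPKM), Slc25a37 (17.6 RPKM) and Slc25a17 (14.8 RPKM) followed. Of the 50 members, 37 had a mean of at least 1 RPKM and were tested, and 13 did not. The levels by library show a range of more than 2 orders of magnitude among the tested members.

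**Figure D1:**
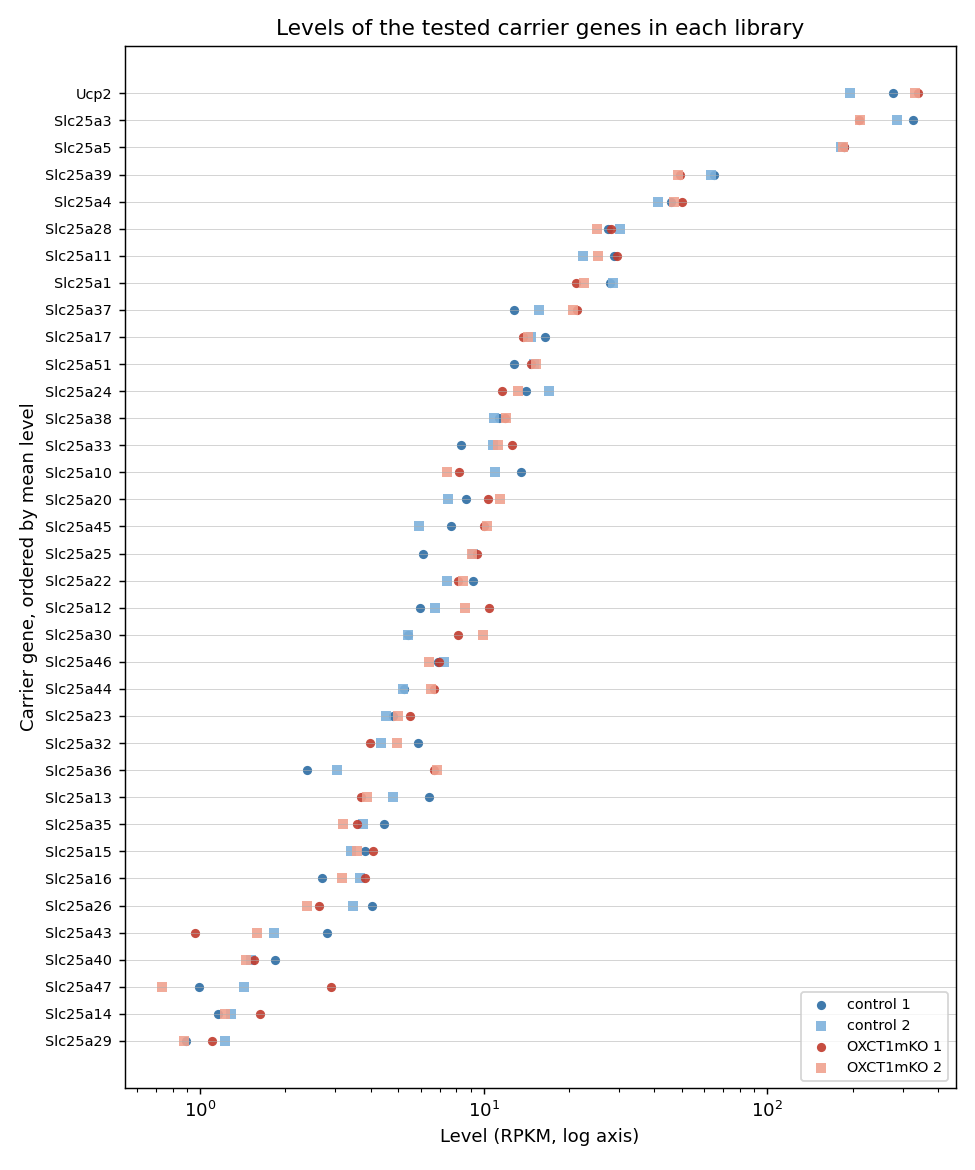
Levels of 36 of the 37 tested carrier genes in the 4 libraries, in RPKM on a log axis, ordered by mean over the libraries; each point is 1 library, dark and light blue for control 1 and 2, dark and light red for OXCT1mKO 1 and 2. Ucp2, Slc25a3 and Slc25a5 stand above the rest, and Slc25a36 shows the widest gap between the groups relative to its level.

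Of the 37 tested carriers, 9 changed, 5 upward (Slc25a36, Slc25a30, Slc25a37, Slc25a45 and Slc25a12) and 4 downward (Slc25a3, Slc25a39, Slc25a10 and Slc25a1). That is 24.3% of the members, against 32.8% of all tested genes (16.4% in each direction), so the share of carriers called was not above the background. The median log2 fold change was 0.07 over the tested members and 0.00455 over all tested genes. In 22 of the 37 (59.5%) the libraries of the groups did not overlap, against 74.7% of all tested genes. Of these 22, 12 were higher in OXCT1mKO (37.6% of all tested genes) and 10 lower (37% of all tested genes). With the RPKM sums of the libraries made equal, globin genes left out, 7 carriers were higher and 1 lower, and over all genes 2718 were higher and 1479 lower, in place of 2058 and 2052. Slc25a39, Slc25a10 and Slc25a1 kept their direction under that scaling but were not called. Without OXCT1mKO 1 or without OXCT1mKO 2, limma called 0 carriers (6 and 8 at an unadjusted p below 0.05), in fits that give the lone OXCT1mKO library the spread of the control pair. Over all genes, the count of 4110 fell to 1 and to 10 in those fits.

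**Figure D2:**
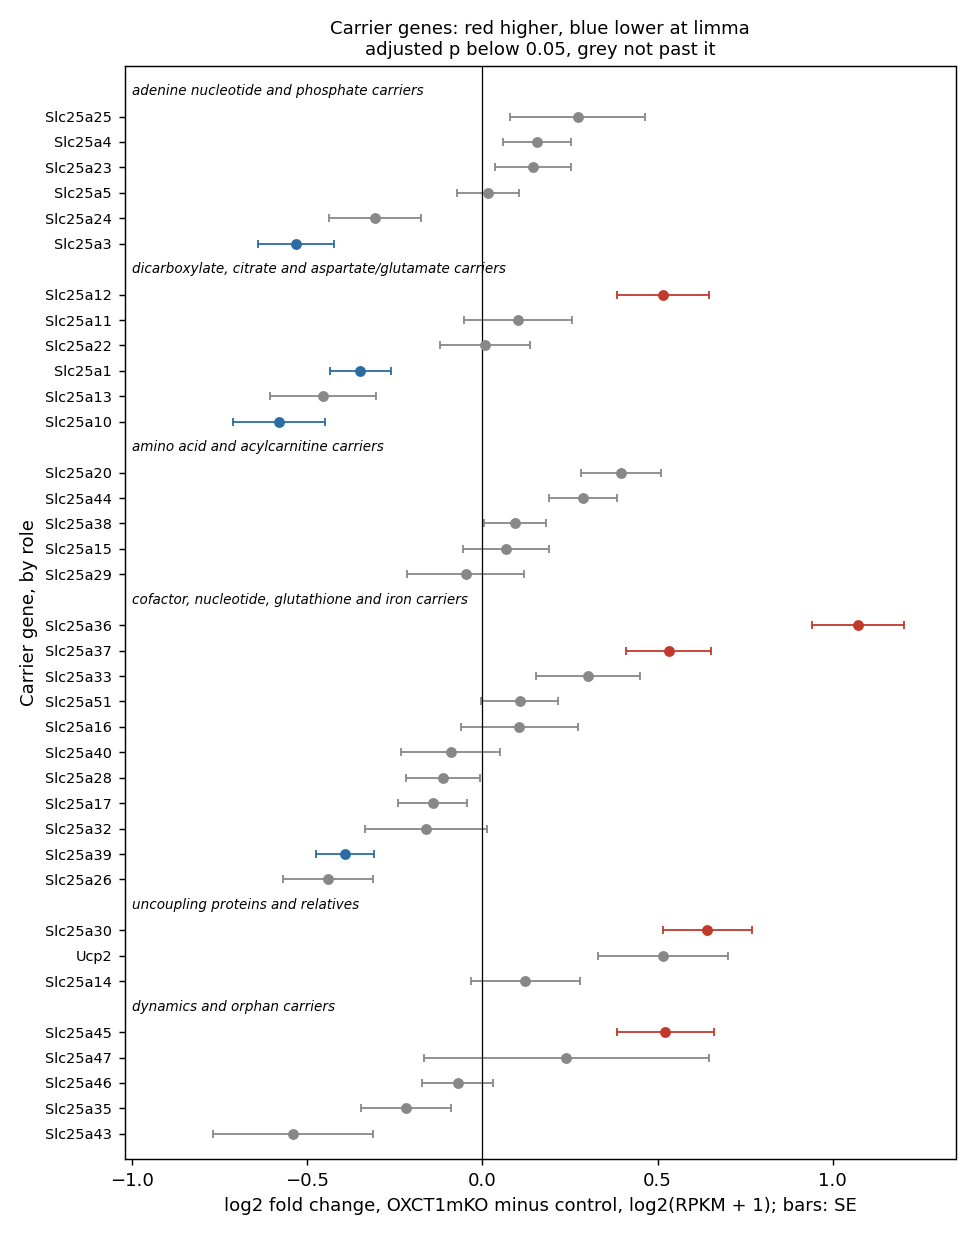
Log2 fold change (OXCT1mKO minus control, log2(RPKM + 1) scale) of 36 of the 37 tested carriers, grouped by role; bars are limma standard errors, red and blue mark genes higher and lower at an adjusted p below 0.05, and grey the others. Called genes lie in both directions, and Slc25a36 at 1.07 and Slc25a10 at -0.58 are the ends of the range.

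Among carriers of adenine nucleotides and phosphate, the phosphate carrier fell and neither tested ADP/ATP translocase was called. Slc25a3 brings the phosphate for ATP synthesis into the matrix and is encoded on the minus strand of chromosome 10 (GRCm38, 91116574 to 91124059). It was 326 and 288 RPKM in the control pair and 211 and 212 RPKM in OXCT1mKO, and both OXCT1mKO libraries were below both controls. The mean was 307 ± 27.3 against 212 ± 0.491 RPKM (SD, n = 2), giving a log2 difference of -0.53 ± 0.11 (SE, limma adjusted p 0.0252). Slc25a5, the ADP/ATP translocase of dividing cells, was 186 and 182 RPKM against 187 and 186 RPKM, and its groups overlapped. Its log2 fold change was 0.02 ± 0.09 (limma adjusted p 0.902), with an interval of 1 SE that spans 0. Slc25a4, the translocase of heart and muscle, was 45.6 and 41.3 RPKM against 50.005 and 46.9 RPKM. The OXCT1mKO libraries were slightly higher, and the log2 difference of 0.15 ± 0.10 did not pass (limma adjusted p 0.261). Processed copies of Slc25a5 and Slc25a3 can share reads with them, so these levels carry that uncertainty. The calcium-regulated carriers of ATP-magnesium and phosphate, Slc25a23, Slc25a24 and Slc25a25, had log2 differences of 0.14, -0.30 and 0.27, and none of the 3 passed. In all, 1 of 6 tested members of this group fell, 0 rose, and 5 did not pass. The 1 called is 16.7% of the group, against 32.8% of all tested genes.

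The carriers of dicarboxylates, citrate, aspartate and glutamate included 3 changed genes of 6 tested, 1 higher and 2 lower. That is 50%, in a list of few genes, against 32.8% of all tested genes. Slc25a10, which exchanges malate and succinate for phosphate, lies on the plus strand of chromosome 11 from 120491840 to 120499187. It was 13.5 and 10.9 RPKM in the control pair and 8.16 and 7.45 RPKM in OXCT1mKO. All of the OXCT1mKO values were below the controls, with a log2 difference of -0.58 ± 0.13 (limma adjusted p 0.0324), and the call was lost without control 1 (adjusted p 0.0566, log2 fold change -0.44). Slc25a1, the citrate carrier, lies on the minus strand of chromosome 16 from 17925223 to 17928219. Its level was 27.9 and 28.5 RPKM in the control pair and 21.2 and 22.7 RPKM in OXCT1mKO. The groups did not overlap and the log2 fold change was -0.35 ± 0.09 (limma adjusted p 0.0394), but the call was lost in 8 of 11 alternative fits (adjusted p 0.053 to 0.253 where lost), with the direction kept in all 11. Slc25a11, the oxoglutarate carrier of the malate-aspartate shuttle, was 28.9 and 22.3 RPKM against 29.5 and 25.4 RPKM. Its groups overlapped, and its log2 difference of 0.10 ± 0.16 did not pass (limma adjusted p 0.632).

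The other arm of that shuttle is formed by a pair of aspartate/glutamate carriers, Slc25a12 (aralar) and Slc25a13 (citrin, the form of liver). Slc25a12, on the minus strand of chromosome 2 from 71271063 to 71367749, was 5.97 and 6.71 RPKM in the control pair and 10.4 and 8.59 RPKM in OXCT1mKO. Both OXCT1mKO values were above the controls, with a log2 difference of 0.52 ± 0.13 (limma adjusted p 0.0413). That call was lost without control 1 (adjusted p 0.0996) and without control 2 (adjusted p 0.0511). Slc25a13 was 6.39 and 4.80 RPKM in the control pair and 3.69 and 3.86 RPKM in OXCT1mKO. The OXCT1mKO values were lower, but the log2 difference of -0.45 ± 0.15 did not pass (limma adjusted p 0.076). Slc25a13 was called without control 2, at -0.63 and an adjusted p of 0.0272, and was at -0.28 without control 1 (adjusted p 0.146). Slc25a22, a glutamate carrier, had a log2 difference of 0.01 and overlapping groups.

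None of the 5 tested carriers of amino acids and acylcarnitine changed by limma. An unadjusted p below 0.05 was found for 2 of them, and for 6000 of the 12523 tested genes. Slc25a20, which brings acylcarnitines into the matrix for fatty acid oxidation, was 8.63 and 7.46 RPKM in the control pair and 10.4 and 11.4 RPKM in OXCT1mKO. Its OXCT1mKO values were above the controls, and its log2 difference of 0.40 ± 0.11 was just outside the threshold (limma adjusted p 0.0544). It passed in 3 alternative fits: with a minimum mean of 5 RPKM (adjusted p 0.0454), with equal RPKM sums without globin (adjusted p 0.0381) and without control 1 (adjusted p 0.0461). Slc25a44, a carrier of branched-chain amino acids, had 5.26 and 5.20 RPKM against 6.69 and 6.51 RPKM. Its groups did not overlap and its log2 difference of 0.29 ± 0.10 did not pass (limma adjusted p 0.0766). Slc25a38, the glycine carrier needed for haem synthesis, was 11.4 and 10.9 RPKM against 11.9 and 11.96 RPKM, a log2 difference of 0.09 ± 0.09 (limma adjusted p 0.440). Slc25a15, the ornithine carrier of the urea cycle, and Slc25a29, a carrier of basic amino acids, had log2 differences of 0.07 and -0.05.

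Carriers of cofactors, nucleotides, glutathione and iron held the largest difference of the family. Slc25a36, a carrier of pyrimidine nucleotides, lies on the minus strand of chromosome 9 from 97074961 to 97111157. It was 2.38 and 3.04 RPKM in the control pair and 6.68 and 6.85 RPKM in OXCT1mKO. The group means were 2.71 ± 0.462 and 6.77 ± 0.121 RPKM (SD, n = 2), a ratio of 2.50, with a log2 difference of 1.07 ± 0.13 (limma adjusted p 0.0127). A change of that size, 1 or more on the log2 scale and past the threshold, was found in 5.85% of all tested genes. The related pyrimidine nucleotide carrier Slc25a33 was 8.31 and 10.8 RPKM against 12.6 and 11.2 RPKM. It was higher in both OXCT1mKO libraries, but its log2 difference of 0.30 ± 0.15 did not pass (limma adjusted p 0.173). It was 0.47 without control 2, where it passed (adjusted p 0.0486), and 0.13 without control 1 (adjusted p 0.42).

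Of the mitoferrins, which bring iron into mitochondria, mitoferrin 1 was called and mitoferrin 2 was not, and the difference between them was not tested. Slc25a37 (mitoferrin 1, the erythroid form), on the minus strand of chromosome 14 from 69241848 to 69285112, was 12.8 and 15.7 RPKM in the control pair and 21.4 and 20.6 RPKM in OXCT1mKO. The groups did not overlap and the log2 fold change was 0.53 ± 0.12 (limma adjusted p 0.0322). Control 1, the library with the highest erythroid marker sum, had the lowest Slc25a37 value, and the part of erythroid cells in these values was not tested. Slc25a28 (mitoferrin 2) was 27.4 and 30.2 RPKM against 28.2 and 25.0 RPKM, with overlapping groups and a log2 difference of -0.11 ± 0.11 (limma adjusted p 0.439). Slc25a39, which imports glutathione, lies on the minus strand of chromosome 11 from 102402985 to 102407946. Its level was 65.0 and 63.4 RPKM in the control pair and 49.1 and 48.3 RPKM in OXCT1mKO. It fell by 0.39 on the log2 scale (-0.39 ± 0.08, limma adjusted p 0.0268), and replicates within a group were within 2 RPKM of each other. Slc25a40, its relative with the same substrate, was near 1.59 RPKM on average and did not pass (log2 fold change -0.09 ± 0.14).

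The remaining cofactor carriers did not pass. Slc25a17, a peroxisomal carrier of coenzyme A and other nucleotides, was 16.5 and 14.7 RPKM against 13.8 and 14.3 RPKM. Both OXCT1mKO values were lower, with a log2 difference of -0.14 ± 0.10 (limma adjusted p 0.306). Slc25a26, which imports the methyl donor S-adenosylmethionine, had a log2 difference of -0.44 ± 0.13 (limma adjusted p 0.0562) and was called without the variance trend (adjusted p 0.0479) and without control 2 (-0.53, adjusted p 0.0489). The carriers of NAD (Slc25a51) and of folate or FAD (Slc25a32), and Slc25a16, had log2 fold changes between -0.16 and 0.11. In all, 2 of the 12 tested members of this group rose, 1 fell and 9 did not pass. The share called was 25%, against 32.8% of all tested genes.

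Ucp2, the most abundant member, was 278 and 197 RPKM in the control pair and 339 and 331 RPKM in OXCT1mKO. Both OXCT1mKO libraries were above both controls, but the controls were far apart (238 ± 57.9 against 335 ± 5.93 RPKM, SD, n = 2). The log2 difference of 0.52 ± 0.19 did not pass (limma adjusted p 0.0896). It was 0.77 without control 1, where it passed (adjusted p 0.0235), and 0.27 without control 2. The macrophage marker sum was also lowest in control 2 and highest in both OXCT1mKO libraries, and its part in the Ucp2 values was not tested. Slc25a30, a relative of the uncoupling proteins known from kidney, lies on the minus strand of chromosome 14 from 75760117 to 75787037. It was 5.41 and 5.41 RPKM in the control pair and 8.10 and 9.98 RPKM in OXCT1mKO. It rose by 0.64 ± 0.13 on the log2 scale (limma adjusted p 0.024), with an adjusted p of 0.0542 without control 1. Slc25a14, another relative, had a log2 difference of 0.12 ± 0.16 and did not pass.

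Of 5 tested members with a role in mitochondrial dynamics or with substrates long unknown, 20% were called, against 32.8% of all tested genes. The called member, Slc25a45, rose. It lies on the plus strand of chromosome 19 from 5877808 to 5885878. Its level was 7.68 and 5.92 RPKM in the control pair and 10.03 and 10.2 RPKM in OXCT1mKO. The groups did not overlap and the log2 fold change was 0.52 ± 0.14 (limma adjusted p 0.0455), but the call was lost in 7 of 11 alternative fits (adjusted p 0.0511 to 0.20 where lost). Slc25a46, an outer membrane protein of mitochondrial fission, had a log2 difference of -0.07 and overlapping groups. Slc25a43 was lower at -0.54 ± 0.23 and Slc25a35 at -0.22 ± 0.13, and neither passed (limma adjusted p 0.125 and 0.241). Slc25a47, a liver carrier, was 0.992, 1.43, 2.89 and 0.736 RPKM in control 1, control 2, OXCT1mKO 1 and OXCT1mKO 2. It was highest in OXCT1mKO 1, where the hepatocyte marker sum was highest too (727 RPKM), and its part was not tested.

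The 13 members below the filter were Slc25a42, Slc25a21, Slc25a53, Slc25a27, Slc25a2, Slc25a18, Ucp1, Slc25a48, Slc25a31, Ucp3, Slc25a54, Slc25a41 and Slc25a34. Their means ran from 0.728 RPKM for Slc25a42, a coenzyme A carrier, to 0.0128 RPKM for Slc25a34. Ucp1, the uncoupling protein of brown fat, was listed at 0 in control 1 and OXCT1mKO 2, and Slc25a31, the translocase of testis, in OXCT1mKO 2. Slc25a54, Slc25a41 and Slc25a34 were each listed at 0 in at least 1 library. Slc25a18, a second glutamate carrier, shares exonic sequence with Atp6v1e1 on the opposite strand, which was 71.6 to 88.7 RPKM. Without a stated strand setting, reads of overlapping genes cannot be told apart.

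Related carriers were next set side by side as ratios of RPKM within a library, for pairs chosen after their values were seen and given without a test. Slc25a12 over Slc25a13 was 0.934 and 1.40 in the control pair and 2.83 and 2.22 in OXCT1mKO. The aralar form was on either side of the level of citrin in the controls and above it in both OXCT1mKO libraries. Slc25a36 over Slc25a33 was 0.287 and 0.282 in the control pair and 0.529 and 0.611 in OXCT1mKO, and Slc25a33 stayed the higher of these in every library. For the mitoferrins, Slc25a37 over Slc25a28 was 0.468 and 0.519 against 0.758 and 0.824. For the carriers of dicarboxylates, Slc25a10 over Slc25a11 was 0.468 and 0.489 against 0.277 and 0.294. Slc25a4 over Slc25a5 was 0.245 and 0.227 against 0.267 and 0.253, a narrow gap, and Slc25a39 over Slc25a40 was 31.6 to 42.1 over the 4 libraries. Slc25a30 over Slc25a14 was 4.19 to 8.13 and Slc25a25 over Slc25a24 was 0.431 to 0.820, each with both OXCT1mKO values above the controls.

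**Figure D3:**
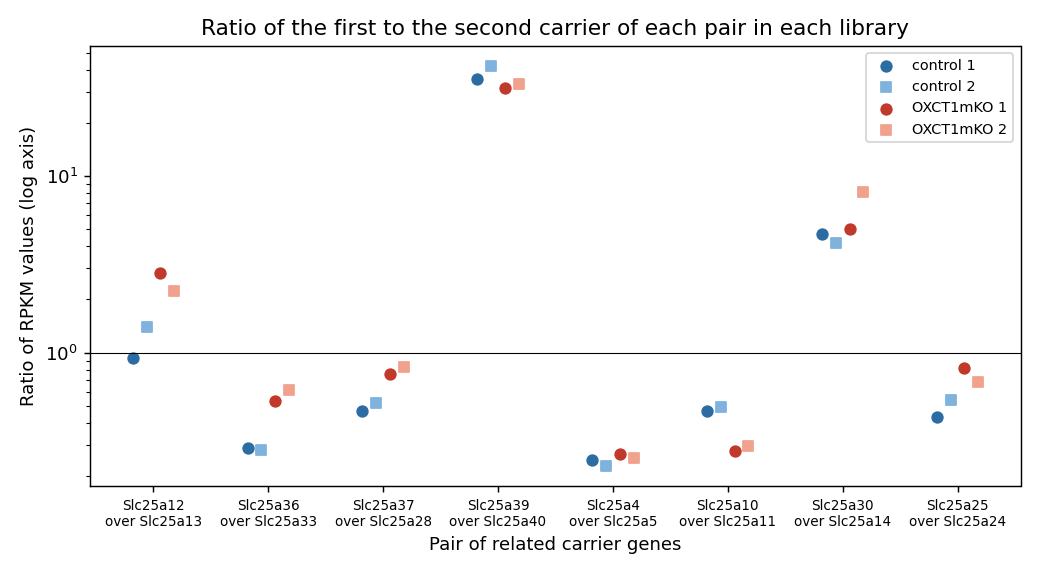
Ratio of the RPKM values of related carriers in each library, on a log axis, for 8 pairs; each point is 1 library, blue for control and red for OXCT1mKO, and the line marks equal levels. Slc25a12 over Slc25a13 runs from 0.934 in control 1 to 2.83 in OXCT1mKO 1, and Slc25a4 over Slc25a5 stays between 0.227 and 0.267.

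The changed carriers were compared by features that did not enter their choice. The members called higher had a median summed exon length of 6021 bases (GENCODE M21, 2762 to 9594, n = 5), and the members called lower 3106 bases (2164 to 5550, n = 4). Over all tested genes with a length (n = 12333), the Spearman correlation of exon length with log2 fold change was 0.31 across genes, and over the 37 carriers it was 0.24. The genes share the same 4 libraries, and the part of length in the carrier results was not tested. Exons of 15 members overlap those of another annotated gene, among the changed ones Slc25a37 and Slc25a10, each with antisense genes. Several members are neighbours with unlike levels. Ucp3 lies 6904 bases from Ucp2 on chromosome 7 and averaged 0.0715 RPKM against 286 RPKM. Slc25a43 lies 18448 bases from Slc25a5 on chromosome X and averaged 1.79 RPKM against 185 RPKM.

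Promoter windows (250 bases before to 50 bases after a gene's start, RefSeq, build GRCm38.p6) were matched for 29 of the 37 tested members and searched on both strands for motifs known from genes of mitochondria and metabolism. The NRF1 motif (10 letters, matched in Slc25a3 as GCGCCTGCGC) was in 1 of the 29, Slc25a3, and in 4.603% of all 32851 windows. The ETS family motif CCGGAAG was in 6 of 29 members, among them Slc25a3, Slc25a4 and Slc25a20, and in 8.86% of all windows. An E-box, CACGTG, was in 6 members, among them Slc25a36, Slc25a1 and Slc25a13, and in 7.15% of all windows. The CRE motif TGACGTCA was in Slc25a25 and Slc25a36 and in 1.79% of all windows. Among tested genes with a window, where a gene may have several, these shares were 11.3%, 20.1%, 11.7% and 3.38%, against 3.45%, 20.7%, 20.7% and 6.90% of the 29 members. The YY1 motif was in 0 members and 0.852% of windows. None of these motifs overlaps another in the stretches shown. A match is a description of the letters only. The stretches upstream of both the RefSeq and the GENCODE start are shown for the carrier with the largest rise and for the most abundant carrier that fell, 5′ to 3′ on the gene's strand, with motif matches in capitals. The like stretch of Slc25a10, the carrier with the largest fall, held no match and is not shown. Nor was a match found in those of the called carriers Slc25a30, Slc25a12 and Slc25a45. In Slc25a36 (chr9:97111158-97111291, minus strand) the capitals mark the E-box at -187 to -182 and the CRE at -161 to -154 from the RefSeq start, and in Slc25a3 (chr10:91124060-91124217, minus strand) the NRF1 motif at -214 to -205 and the ETS motif at -175 to -169.
Slc25a36: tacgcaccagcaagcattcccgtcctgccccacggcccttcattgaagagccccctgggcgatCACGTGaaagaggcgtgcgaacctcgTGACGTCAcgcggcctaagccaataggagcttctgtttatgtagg
Slc25a3: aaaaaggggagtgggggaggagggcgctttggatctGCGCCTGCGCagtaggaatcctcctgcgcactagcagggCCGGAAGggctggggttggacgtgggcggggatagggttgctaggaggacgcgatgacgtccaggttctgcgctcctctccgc

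Other genes of mitochondrial transport were read from the same fit. Carriers reach the inner membrane through the outer-membrane import pore, small Timm chaperones of the intermembrane space and the TIM22 insertase. Of 13 genes of this route, 6 fell and 0 rose, with a median log2 difference of -0.36, against 16.4% of all tested genes that fell. Those that fell were the small chaperones Timm13, Timm10, Timm8a1, Timm9 and Timm10b and the import receptor Tomm20. Timm13 was 55.9 and 53.4 RPKM in the control pair and 29.1 and 28.05 RPKM in OXCT1mKO (-0.91 ± 0.08, limma adjusted p 0.0127). Timm10 was 26.8 and 24.7 RPKM against 13.1 and 14.1 RPKM, Tomm20 31.8 and 33.1 RPKM against 18.8 and 18.5 RPKM, and Timm8a1 10.7 and 9.76 RPKM against 5.30 and 5.59 RPKM. In each of these 4 the OXCT1mKO values lay below the controls, as in 37% of all tested genes. The 4 were picked for the smallest p of the list, so this separation largely follows from that choice. Without OXCT1mKO 1 or without OXCT1mKO 2, 0 genes of this list, and of the lists of other transporters and partner enzymes described next, were called.

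Among 20 tested mitochondrial transporters outside the family, 2 rose and 4 fell, with a median of 0.04. That is 30% of the list, against 32.8% of all tested genes, a share at the background. Slc8b1, the sodium/calcium exchanger of mitochondria, was 9.24 and 8.09 RPKM in the control pair and 22.5 and 20.0 RPKM in OXCT1mKO (1.20 ± 0.11, limma adjusted p 0.0127). Mcub, an inhibitory subunit of the calcium uniporter, was 5.43 and 4.04 RPKM against 9.59 and 9.02 RPKM and rose by 0.86 ± 0.15. These 2 genes of calcium transport did not overlap between the groups, but both were picked for a p among the 4 smallest of the list. Vdac1 was 110.1 and 107 RPKM against 73.1 and 74.1 RPKM, and Vdac2 was 150 and 138 RPKM against 99.4 and 96.7 RPKM. The outer-membrane porins Vdac1 (-0.55 ± 0.08), Vdac2 (-0.55 ± 0.09) and Vdac3 (-0.41 ± 0.11) and the outer-membrane insertase Mtch2, a divergent relative of the carriers (-0.37 ± 0.08) fell.

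Of 34 enzymes and partners that use the carriers' substrates, 4 rose and 8 fell, with a median of -0.12, and without the filter on low genes 5 were called in all. The 12 called are 35.3% of the list, close to the 32.8% of all tested genes. The malate-aspartate shuttle enzymes Mdh1 (-0.31) and Mdh2 (-0.50) fell, whereas Got1 (0.19) and Got2 (-0.28) did not pass. Me1, the cytosolic malic enzyme, was 7.69 and 8.42 RPKM in the control pair and 3.69 and 2.94 RPKM in OXCT1mKO (-1.07 ± 0.13, limma adjusted p 0.0127). Shmt2, the mitochondrial serine hydroxymethyltransferase, was 39.8 and 36.0 RPKM against 22.6 and 22.7 RPKM (-0.72 ± 0.09). Both genes were lower in both OXCT1mKO libraries than in both controls, but both were picked for a p among the 4 smallest of the list. Gpx4, a glutathione peroxidase, Coasy, of coenzyme A synthesis, and Atp5b, of ATP synthase, fell too. Cpt1a (0.48 ± 0.12) and Crat (0.45 ± 0.12), which make acylcarnitines, rose. Cpt2, which acts after Slc25a20 in the matrix, had -0.35 and did not pass (limma adjusted p 0.086). Ass1, an enzyme of arginine synthesis, was 17.9 and 17.5 RPKM against 34.5 and 31.1 RPKM (0.85 ± 0.09). Otc, an enzyme of the urea cycle, rose from 0.565 to 2.51 RPKM on average. It was 0.713 and 0.417 RPKM against 3.21 and 1.82 RPKM, so it passed the filter on mean level only through OXCT1mKO. Ass1 is also among the hepatocyte markers above, and Otc is a hepatocyte enzyme. Genes named in these lists beyond the 4 with the smallest p were chosen after their values were seen.

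**Figure D4:**
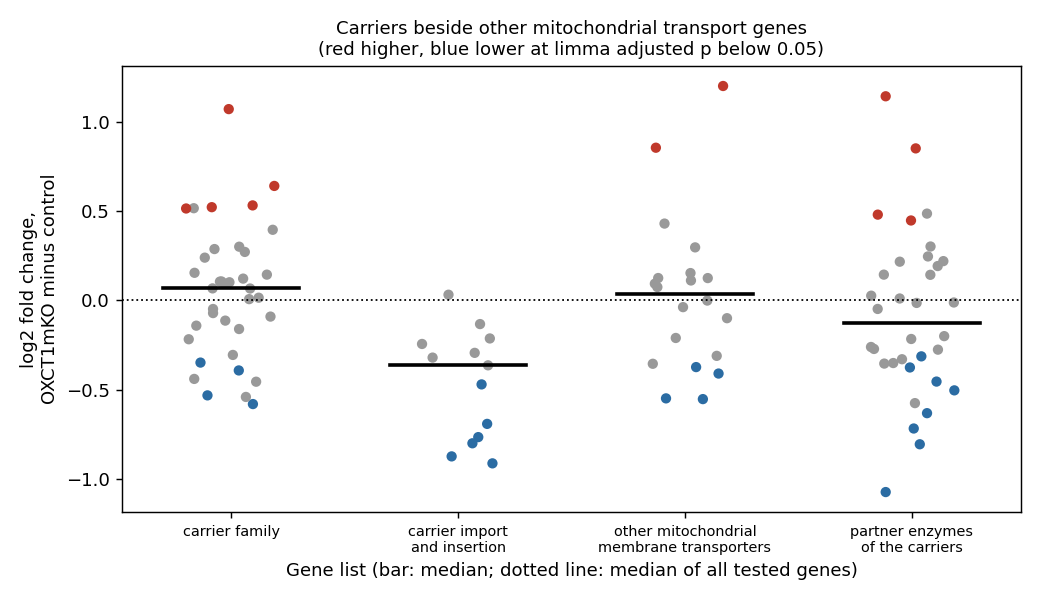
Log2 fold change (OXCT1mKO minus control) of each tested gene in the carrier family and in 3 lists of related mitochondrial genes; red and blue points passed the test upward and downward, bars are medians, and the dotted line is the median of all tested genes. The carriers spread around a median of 0.07 and the import genes around -0.36.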

How the data were processed

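RPKM values were deposited by the authors in 1 table, gene symbols in rows and the 4 samples in columns. STAR 2.10, R 4.0.5 and build mm10 are named in the submitters' processing notes. The read counter, the strand setting, the annotation and the lengths were not given in the sources used here. Protocol text also names a microarray, which does not describe these values. Columns were mapped by sample title. RPKM sums were 325034 to 377575 per library. Read depth is unknown: of low values (mean up to 0.05 RPKM), 10.2% to 12.2% stood in ratios of whole numbers up to 8 between 2 libraries (tolerance 0.1%), so whole reads were not recovered and no counting interval is given.

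The scale of the fit was log2(RPKM + 1), which understates changes of low genes. Genes with a mean of at least 1 RPKM entered a limma model (limma 3.58.1, R 4.3.3) with a group term and a variance trend, two-sided, with Benjamini-Hochberg adjustment over 12523 genes and a threshold of 0.05. An exact permutation test of 2 against 2 cannot give p below 0.333. Alternatives were a pseudocount of 0.1, no filter, a minimum of 5 RPKM, no trend, equal RPKM sums without globin, median-of-ratios scaling, a replicate block, and leaving out each library. Values by library are given for Oxct1, changed carriers, the 10 highest carriers, Slc25a20, Slc25a1, Slc25a37, Slc25a38, Slc25a39 and Ucp2, and for the 4 genes of smallest p in each related list. A few genes that these rules name, 1 tested carrier among them, are counted but not reported here. Other carriers given by library were chosen after their values were seen. Stellate, B cell, neutrophil, epithelial, pancreatic acinar and hepatoma markers were also summed. The members and lists were chosen with earlier results of these data known. Positions are from GENCODE M21 (GRCm38), which matched all 50 members, and promoters from RefSeq.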

Additional observations from a re-analysis of the deposited data

How the results depend on the processing

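Of 249 refits of the 23 carriers followed singly, 196 kept their direction and their side of the threshold, 41 lost a call, 9 gained one and 3 changed sign. Only the 9 called carriers could lose a call. They had 11 refits each, or 10 for Slc25a36, so the 41 are to be read against those refits and not against the 249. Without the filter on low genes, limma called 2340 genes and 2 carriers (Slc25a36 and Slc25a39), in a fit with more genes in both the adjustment and the variance trend. With a replicate block on the title numbers, 3606 genes and 6 carriers were called, Slc25a1, Slc25a45 and Slc25a12 being lost. The labels do not say that the numbers pair the samples, and same-numbered deviations correlated at 0.05 across 12523 genes. With equal RPKM sums without globin, the carrier median was 0.16 and that of all tested genes 0.09. The cause of these shifts was not tested. Leaving out 1 library gave 1 to 4418 changed genes, 0 to 10 changed carriers and carrier medians of 0.0026 to 0.082. The 0 belongs to the fits without OXCT1mKO 1 or OXCT1mKO 2. In such fits Slc25a5 ranged from -0.00072 to 0.032 and Slc25a11 from -0.076 to 0.28. Slc25a11 was below 0 without control 2 (-0.076) and without OXCT1mKO 1 (-0.0027), and Slc25a5 without control 2. Read depth is not known, so no detection limit is given for the 13 carriers below 1 RPKM.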
